A study of Nannochloropsis gaditana with 4 samples.

Results

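The data described here set 1 flashing-light culture sample of the marine microalga *Nannochloropsis gaditana*, deposited under the column name SAMPLE 3, against the continuous-light control (CL, column SAMPLE 1). All 44 genes of the panel were compared between these 2 of the 4 samples of the study: 36 targets, which serve pigment and lipid synthesis, ADP-glucose formation and nitrogen uptake, and 8 genes of the kind used as reference. Cells of strain CCAP 849/5 were grown in batch for 13 days in flasks supplied with CO2-enriched air. SAMPLE 3 received flashes with a duty cycle of 0.05 and an intensity of 6000 µmol s-1 m-2 during the flash, and CL received light without interruption. The light averaged over time was 300 µmol s-1 m-2 in both. Flash frequencies of 5, 50 and 500 Hz were used in the study, but nothing in the labels or file headers links SAMPLE 3 to one of them, so none is named for it. The control column was identified from the authors' fold table, in which it is the divisor throughout.

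Each gene had 3 numbered repeats per sample, measured by quantitative PCR with SYBR Green, and RNA was pooled beforehand according to the series' design text. The sources used here do not say what a repeat is, so its spread may be wholly technical. The values are relative quantities, linear and scaled within each gene, so levels are compared between samples and never between genes. Errors of a quantity are SDs over the 3 repeats. The error of a log2 change is the propagated SD, which adds the log2 SDs of both samples in quadrature. As every condition was a single sample, conditions were not tested against each other and p-values are absent. A gene was called when its change was at least 2-fold and larger than 2 propagated SDs. No threshold cycles were used here, so the precision of single values is unknown.

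As background, flashes deliver light in short bright pulses, and an algal cell balances the light it captures through its antenna pigments and the xanthophyll cycle. Carbon fixed in the light enters fatty acids in the plastid, where malonyl groups are loaded onto an acyl carrier protein and chains are elongated in a cycle of condensation, reduction, dehydration and a further reduction. The acyl chains are then desaturated, activated to acyl-CoA and attached to glycerol-3-phosphate, and the last step to the storage oil triacylglycerol is taken by diacylglycerol acyltransferase. Nitrate reductase, which turns nitrate into nitrite, begins the assimilation of nitrate into amino acids and chlorophyll.

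In SAMPLE 3 transcript quantities lay close to CL for most of the panel, with nitrate reductase as the exception. Of the 36 targets, 34 stood within 0.5 log2 of CL and 30 within 1 propagated SD. The median target was at −0.04, with 12 targets above and 24 below the control. The rule of size called 1 of 36 targets, 2.78%, and that was NR, lower in SAMPLE 3. No target was called higher. The error limited what could be called: the propagated SD ran from 0.11 to 0.76 with a median of 0.36, and 2 propagated SDs were smaller than a 2-fold change for 28 targets.

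**Figure D1:**
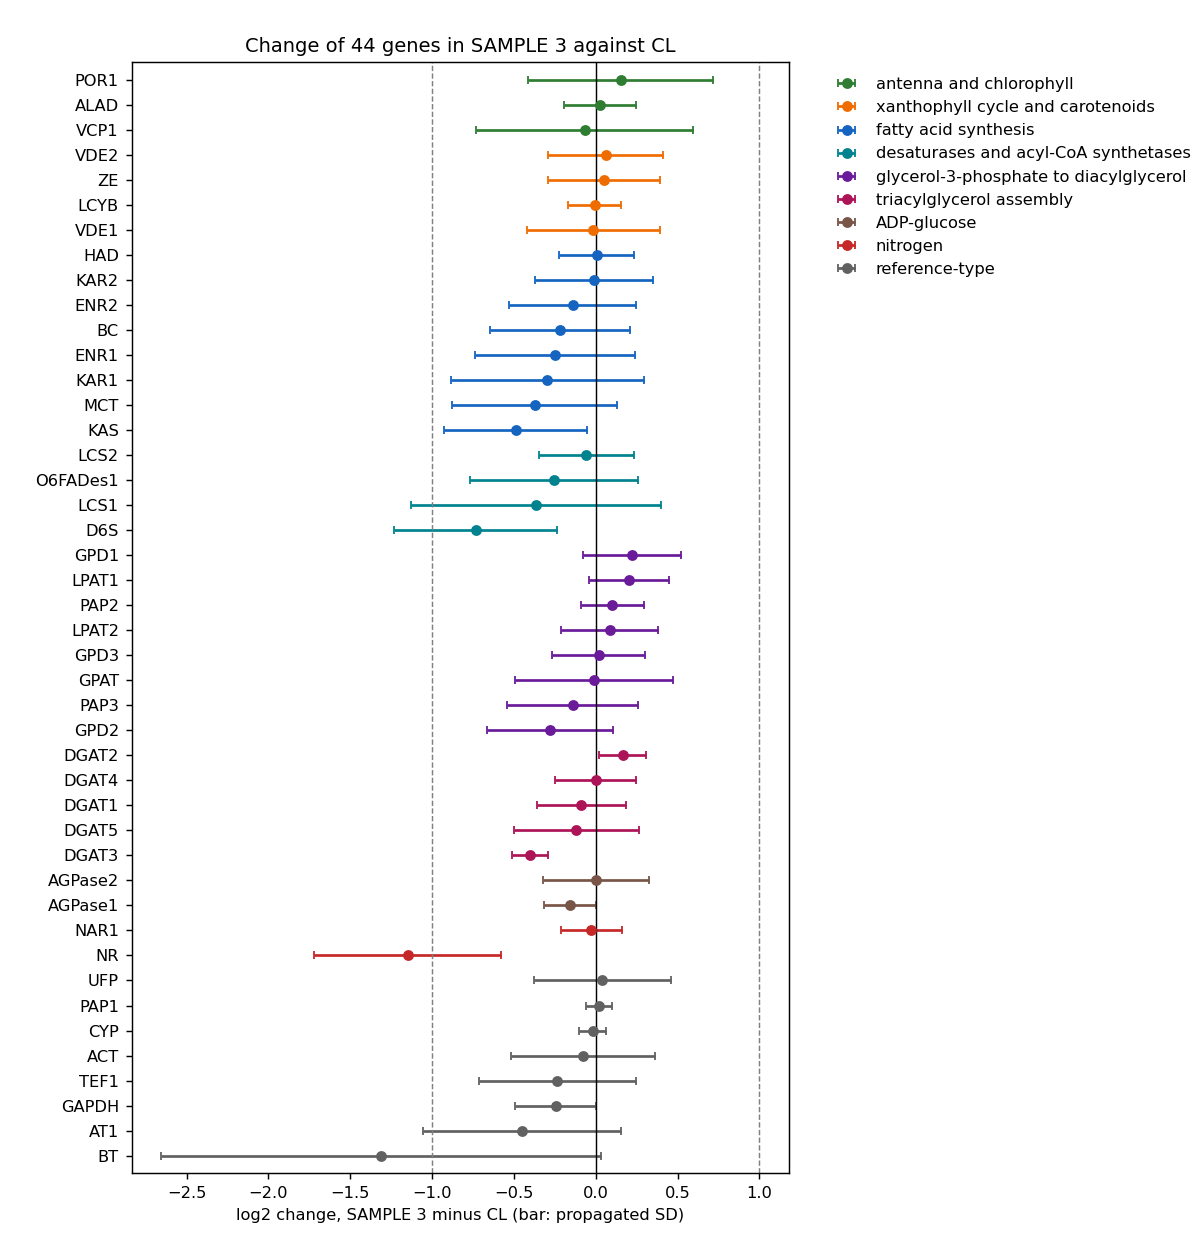
Log2 change of each of the 44 genes, SAMPLE 3 minus CL, as mean of 3 repeats (points) with the propagated SD (bars), coloured by functional list. Dashed lines mark 2-fold. NR at −1.15 and the reference-type gene BT at −1.31 are the genes beyond the lower line, and no gene reaches the upper one.

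Among the nitrogen genes, NR had a normalized quantity of 0.269, 0.267 and 0.324 in the repeats of SAMPLE 3, against 0.466, 0.563 and 0.968 in those of CL. The repeats of SAMPLE 3 lay close together and all below the lowest of CL, where repeat 3 was far above the other repeats. The mean was 0.287 ± 0.0325 in SAMPLE 3 and 0.666 ± 0.266 in CL (SD, n = 3 repeats each), a 0.451-fold level and a log2 change of −1.15 ± 0.57. The nitrite transporter gene NAR1 stood at −0.03 ± 0.19, with 0.741, 0.649 and 0.819 in SAMPLE 3 and 0.707, 0.793 and 0.743 in CL. NAR1 overlapped between the samples where NR did not. The ratio of NR to NAR1, into which no reference gene enters, shifted by −1.12 ± 0.55 log2 and did not overlap between the repeats. As NAR1 was level, this ratio restates the values of NR and is no separate evidence. It also carries the high CL repeat 3, with log2 ratios of −0.60, −0.49 and 0.38 in the repeats of CL.

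The call of NR was close to its limits. It was lost without CL repeat 3, at −0.84 ± 0.25, which is under 2-fold, and without CL repeat 2, at −1.23 ± 0.76, which is within 2 propagated SDs. It was also lost without repeat 1 of SAMPLE 3, at −1.11 ± 0.58, and without repeat 2 of SAMPLE 3, at −1.10 ± 0.58. NR stayed below CL in 24 of 25 alternative calculations and met the rule in 10 of them. The fold table and MCT as deposited, both among these 10, leave NR as it is by construction. The exception was beta tubulin BT as the only reference, which put NR at 0.16 ± 1.06. As the repeats of NR did not overlap, leaving out repeats, their median and differences within repeat numbers could not put NR above CL. The sign of NR was thus open only where the normalization changed, and the count of 24 is no measure of robustness.

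No overlap between the repeats of the samples was found for 3 of 36 targets, 8.33%, each lower in SAMPLE 3: NR, D6S and DGAT3. No target had all its SAMPLE 3 repeats above the range of CL. D6S, listed in the tables as a delta 6 saturase and grouped here with the fatty acid desaturases, had 0.446, 0.356 and 0.620 in SAMPLE 3, against 0.672, 0.693 and 0.975 in CL. The highest repeat of SAMPLE 3 lay just under the lowest of CL, and the change of −0.73 ± 0.50 was within 2 propagated SDs. DGAT3, a diacylglycerol acyltransferase, had 0.591, 0.557 and 0.624 in SAMPLE 3, against 0.749, 0.768 and 0.825 in CL. These repeats were tight in both samples, so that the small change of −0.40 ± 0.11, a 0.756-fold level, was the largest in units of its error. With NR it made up the 2 of 36 targets, 5.56%, beyond 2 propagated SDs. DGAT3 was lower beyond 2 propagated SDs in 17 of 25 alternative calculations. Among reference genes used alone, this held only with CYP or PAP1.

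**Figure D2:**
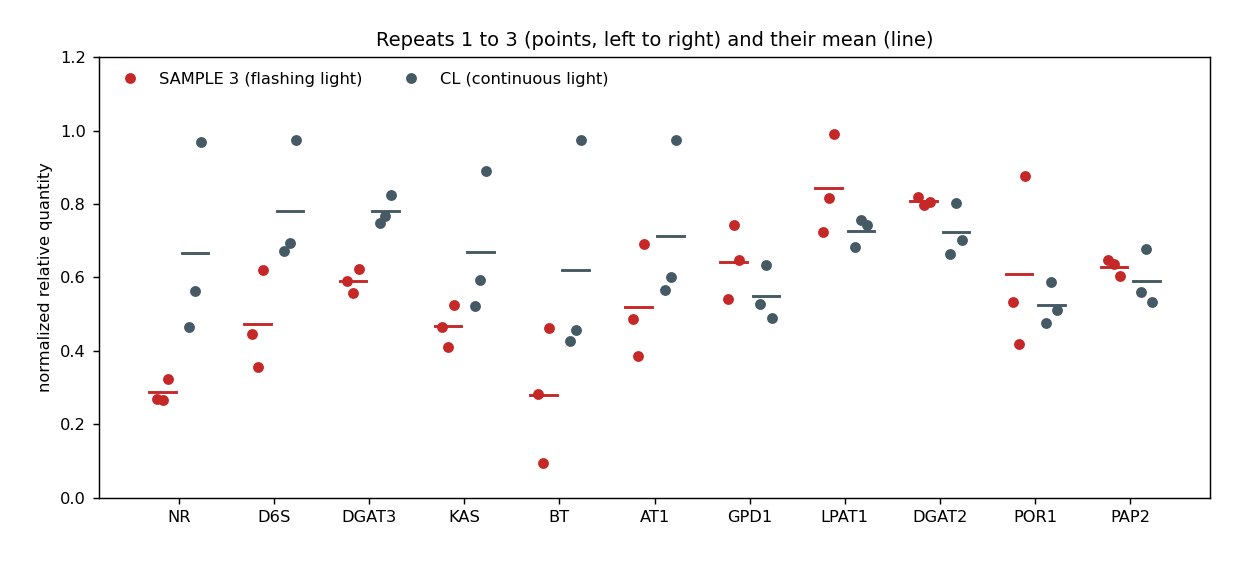
Normalized relative quantity (linear axis from 0) of 11 genes in SAMPLE 3, red, and CL, grey, with repeats 1 to 3 as points from left to right and their mean as a line. NR, D6S and DGAT3 are the genes without overlap between samples, and the point of CL repeat 3 is the highest CL point for each of NR, D6S, DGAT3, KAS, BT and AT1.

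In fatty acid synthesis 7 of 8 means lay below CL, the median was −0.23 and no gene was called. KAS, a ketoacyl-CoA synthase by its name in the tables, was the lowest of them at −0.49 ± 0.44. Its quantity was 0.465, 0.411 and 0.525 in SAMPLE 3 and 0.523, 0.594 and 0.889 in CL. The top repeat of SAMPLE 3 lay just above the bottom repeat of CL. MCT, which transfers the malonyl group to the carrier protein, was at −0.37 ± 0.50, with 0.496, 0.402 and 0.534 in SAMPLE 3 and 0.514, 0.510 and 0.884 in CL. The first reductases of the cycle, KAR1 and KAR2, were at −0.30 ± 0.59 and −0.01 ± 0.36, and the second, ENR1 and ENR2, at −0.25 ± 0.49 and −0.14 ± 0.39. The dehydratase HAD was level with CL at 0.01 ± 0.23. BC, a biotin ligase that attaches biotin to acetyl-CoA carboxylase, was at −0.22 ± 0.43.

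The desaturases and acyl-CoA synthetases had 4 of 4 means below CL and a median of −0.31. Next to D6S, the omega 6 desaturase O6FADes1 was at −0.25 ± 0.51, and the long-chain acyl-CoA synthetases LCS1 and LCS2 at −0.36 ± 0.76 and −0.06 ± 0.29. LCS1 had 0.364, 0.343 and 0.492 in SAMPLE 3, against 0.431, 0.344 and 0.885 in CL, so that its lower mean came with overlapping repeats.

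Several of these lower means depended on a single repeat of the control. In CL, repeat 3 stood more than 0.5 log2 above both other repeats for 9 of the 44 genes: NR, KAS, MCT, KAR1, LCS1, O6FADes1, and the reference-type genes TEF1, AT1 and BT. These 9 were picked for that high repeat, which raises their CL means, so leaving it out must raise each change. What follows is the size of that dependence and no evidence on its own. Their changes ran from −1.31 to −0.23 with all repeats and from −0.93 to 0.04 without CL repeat 3, where 6 of the 9 remained below CL. LCS1 then stood at 0.04 ± 0.36, KAR1 at −0.01 ± 0.41 and KAS at −0.26 ± 0.22. The fatty acid synthesis median was −0.07 and that of the desaturases and synthetases 0.01. DGAT3 kept to −0.36 ± 0.08 without it and NR to −0.84 ± 0.25, both beyond 2 propagated SDs.

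**Figure D3:**
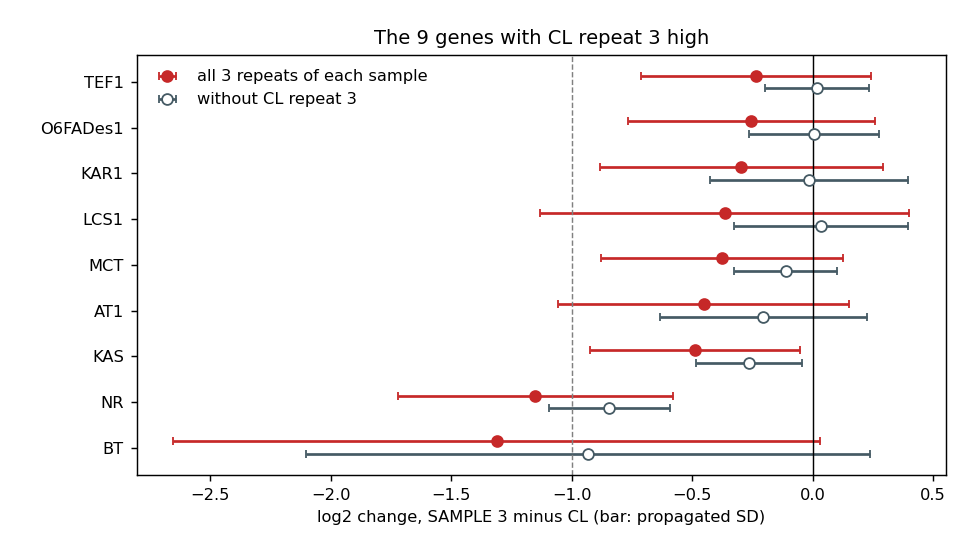
Log2 change, SAMPLE 3 minus CL, of the 9 genes whose CL repeat 3 stood more than 0.5 log2 above the other CL repeats, with all repeats (filled) and without CL repeat 3 (open). Bars are propagated SDs, and the dashed line marks 2-fold lower. Each open point lies to the right of its filled point by the choice of genes, and NR without that repeat is at −0.84.

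Pigment genes showed no called change in SAMPLE 3. The antenna and chlorophyll list had a median of 0.02: VCP1, a violaxanthin-chlorophyll protein of the antenna, was at −0.07 ± 0.66, POR1, the light-dependent protochlorophyllide oxidoreductase, at 0.15 ± 0.56, and ALAD of tetrapyrrole synthesis at 0.02 ± 0.22. VCP1 had 0.264, 0.292 and 0.540 in SAMPLE 3, against 0.298, 0.480 and 0.335 in CL. POR1 had 0.533, 0.419 and 0.876 in SAMPLE 3, against 0.476, 0.588 and 0.510 in CL. Repeat 3 of SAMPLE 3 was the high one for both, and the range of SAMPLE 3 enclosed that of CL. The violaxanthin de-epoxidases VDE1 and VDE2, which form zeaxanthin in strong light, were at −0.02 ± 0.41 and 0.06 ± 0.35. ZE, named in the tables as a zeaxanthin de-epoxidase, was at 0.05 ± 0.34 and the lycopene cyclase LCYB, which makes beta-carotene, at −0.01 ± 0.16. These 4 genes had a median of 0.02.

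Repeats of SAMPLE 3 also differed from each other across genes. Repeat 3 gave the highest of its 3 quantities for 28 of the 36 targets and repeat 2 the lowest for 26. Repeat 3 was more than 0.5 log2 above both others for 4 targets, VCP1, POR1, VDE2 and GPAT. The normalization factor, which divides every gene of a repeat alike, was 1.22, 1.00 and 0.965 in the repeats of SAMPLE 3 and 0.921, 1.02 and 1.03 in those of CL.

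The genes that lead from glycerol-3-phosphate to diacylglycerol held the highest means of SAMPLE 3, all small. GPD1, a glycerol-3-phosphate dehydrogenase, was at 0.22 ± 0.30, with 0.541, 0.743 and 0.646 in SAMPLE 3 and 0.526, 0.635 and 0.490 in CL. LPAT1, which adds the second acyl chain, was at 0.20 ± 0.24, with 0.723, 0.817 and 0.992 in SAMPLE 3 and 0.684, 0.755 and 0.743 in CL. Both overlapped between samples. PAP2, a phosphatidic acid phosphatase, was at 0.10 ± 0.19, with 0.648, 0.636 and 0.603 in SAMPLE 3 inside the range of 0.532 to 0.679 in CL. The list had a median of 0.05 over 8 genes, 5 of them above CL, and its lowest member was GPD2 at −0.28 ± 0.38. GPAT, which adds the first acyl chain, was at −0.01 ± 0.48.

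DGAT3 had the lowest change of the 5 diacylglycerol acyltransferases. DGAT2 had the highest at 0.16 ± 0.14, with 0.819, 0.796 and 0.806 in SAMPLE 3, against 0.665, 0.802 and 0.701 in CL. DGAT1 was at −0.09 ± 0.27, DGAT4 at 0.00 ± 0.25 and DGAT5 at −0.12 ± 0.38. A ratio between members of 1 family is free of the reference, other than in pairs that hold PAP1. Of 22 such pairs in 9 families, 2 shifted by more than 2 propagated SDs, both of them with DGAT3. The log2 ratio of DGAT2 to DGAT3 was 0.47, 0.51 and 0.37 in SAMPLE 3, against −0.17, 0.06 and −0.23 in CL, a shift of 0.57 ± 0.17. The log2 ratio of DGAT3 to DGAT4 was −0.27, −0.09 and −0.39 in SAMPLE 3, against 0.13, 0.21 and 0.13 in CL, a shift of −0.40 ± 0.15. DGAT3 was lower without overlap in 3 of its 4 pairs, the third being that with DGAT1. DGAT3 was singled out after its values were seen, so these ratios are a description.

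ADP-glucose pyrophosphorylase, which supplies ADP-glucose for storage glucans in plants, was measured as AGPase1 at −0.16 ± 0.16 and AGPase2 at 0.00 ± 0.32. AGPase1 had 0.574, 0.545 and 0.473 in SAMPLE 3 and 0.611, 0.562 and 0.599 in CL. Its lower mean rested mostly on repeat 3 of SAMPLE 3, and its other repeats lay at or near the range of CL.

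The reference-type genes did not all follow CYP (cyclophilin) and PAP1, which normalize the table and were therefore level at −0.02 ± 0.08 and 0.02 ± 0.08. Actin ACT was at −0.08 ± 0.44, the ubiquitin family gene UFP at 0.04 ± 0.42, TEF1, a translation elongation factor, at −0.23 ± 0.48 and GAPDH of glycolysis at −0.25 ± 0.25. Alpha tubulin AT1 had 0.486, 0.385 and 0.690 in SAMPLE 3, against 0.565, 0.600 and 0.975 in CL, a change of −0.45 ± 0.61. Beta tubulin BT had 0.283, 0.0951 and 0.463 in SAMPLE 3, against 0.428, 0.457 and 0.975 in CL, a change of −1.31 ± 1.34. Both tubulins were high in repeat 3 of either sample, and BT was the most variable gene of the panel. Its mean was more than 2-fold lower in SAMPLE 3, but the repeats overlapped and the change was within 1 propagated SD.

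Among the 4 samples, SAMPLE 3 had the lowest mean for 9 of the 36 targets. These 9 came from the fatty acid synthesis list and the desaturase and synthetase list. The lists were chosen with earlier results of these data known and were not joined in advance, so this is a description. They were 5 of the 8 fatty acid synthesis genes (ENR1, ENR2, KAS, MCT and KAR1) and all 4 desaturases and acyl-CoA synthetases (D6S, O6FADes1, LCS1 and LCS2), with none of the 24 other targets. SAMPLE 3 had the highest mean for 0 of the 36. Its difference from the next sample was often within the spread, as for LCS2, which lay 0.06 below CL with a propagated SD of 0.29. Without CL repeat 3 the count was 6, of which 5 were fatty acid synthesis genes and 1 was D6S. It was 17 without repeat 3 of SAMPLE 3, with 7 from other lists, and 13 with the median of repeats. With UFP as reference 6 targets were lowest in SAMPLE 3: 5 fatty acid synthesis genes and ALAD, with none of the desaturases and synthetases. With AT1 as reference 2 targets were lowest in SAMPLE 3, and with BT 0.

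Direct differences from the other flashing-light samples do not involve CL. Against SAMPLE 4, 0 of 36 targets were called, 0% in either direction, and 9 of 36, 25%, were lower without overlap. In fatty acid synthesis 5 of 8 were lower without overlap and the median difference was −0.38, against 0.01 over all targets. KAS differed by −0.64 ± 0.30, ENR1 by −0.42 ± 0.20 and MCT by −0.39 ± 0.26. The 4 desaturases and synthetases had a median of −0.49, with overlapping repeats in each. On the other side, 6 of 36 targets, 16.7%, were higher than in SAMPLE 4 without overlap. They included PAP2 at 0.41 ± 0.14, GPD1 at 0.44 ± 0.24, LPAT1 at 0.35 ± 0.23 and LPAT2, a second gene for the same step, at 0.35 ± 0.25, all of the glycerol-3-phosphate to diacylglycerol list. That list was not uniform: 1 of its 8 genes, GPD2, was lower without overlap, at −0.23 ± 0.22. GPD3 and PAP3 were level at −0.01 ± 0.27 and 0.04 ± 0.40.

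Against SAMPLE 2, 4 of 36 targets, 11.1%, were called and each was lower in SAMPLE 3. VCP1 differed by −1.68 ± 0.57, VDE2 by −1.19 ± 0.35, MCT by −1.17 ± 0.22 and HAD by −1.01 ± 0.22. The antenna and chlorophyll list had a median difference of −0.85, with 3 of 3 genes lower without overlap. Fatty acid synthesis had a median of −0.63, with 5 of 8 lower without overlap and BC higher at 0.21 ± 0.43. Over all targets the median was −0.32, with 14 of 36 lower and 4 of 36 higher without overlap. Beyond 2 propagated SDs lay 15 of 36, 41.7%, the called genes included. NR was among them, and higher in SAMPLE 3 than in SAMPLE 2, by 0.88 ± 0.26. DGAT3 was also higher than in SAMPLE 2, by 0.31 ± 0.09, and lay below SAMPLE 4 with a difference of −0.25 ± 0.11. For both NR and DGAT3 the 4 samples thus stood in the order SAMPLE 2, SAMPLE 3, SAMPLE 4 and CL from low to high. The NR repeats of SAMPLE 3 did not overlap with those of any other sample, though its difference from SAMPLE 4, −0.61 ± 0.58, was hardly larger than the error.

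**Figure D4:**
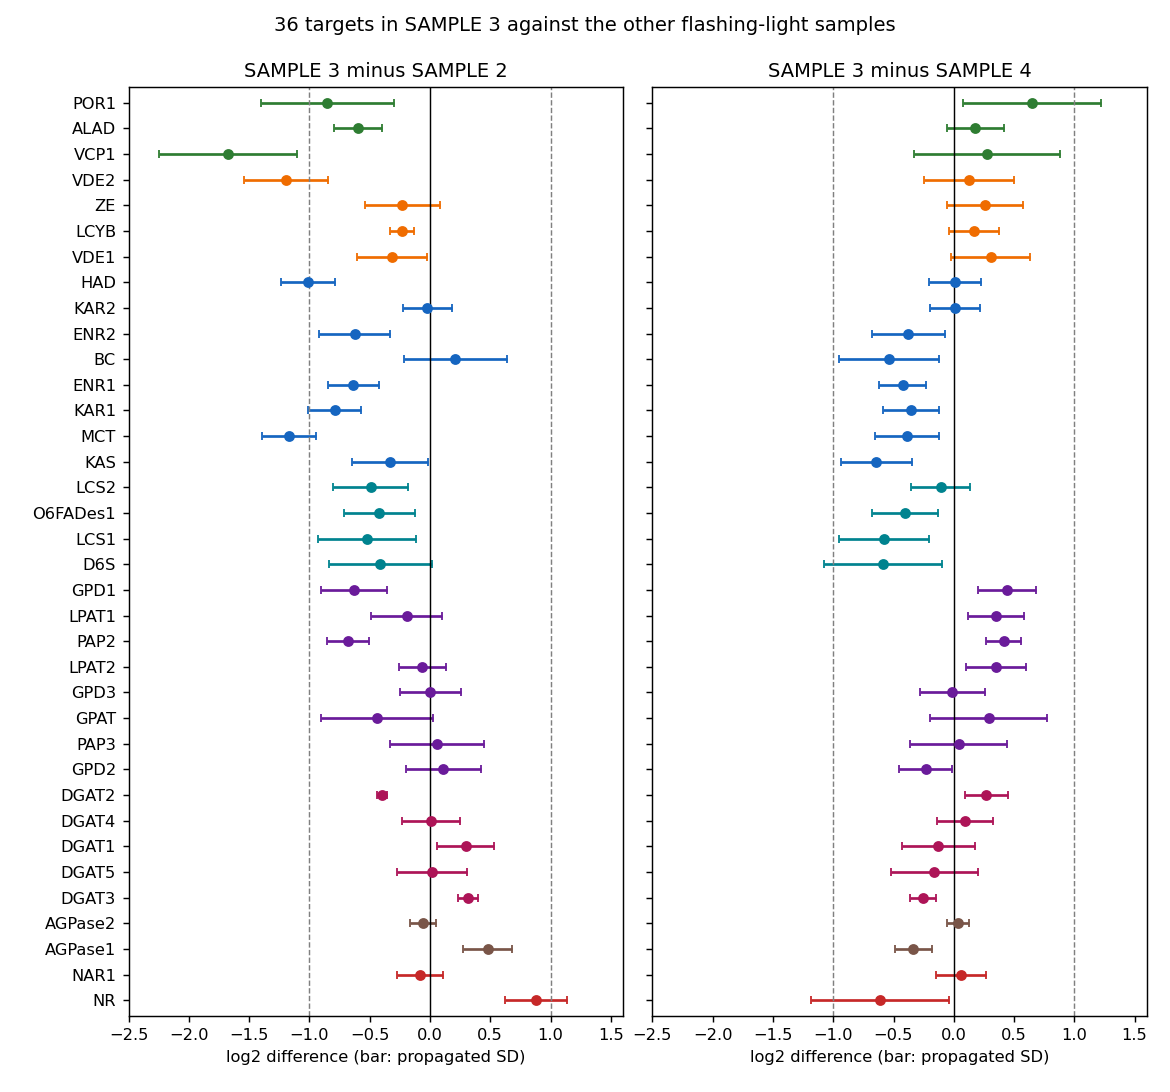
Log2 difference of SAMPLE 3 from SAMPLE 2 (left) and from SAMPLE 4 (right) for the 36 targets, as means with the propagated SD, coloured by functional list. Dashed lines mark 2-fold. Antenna genes such as VCP1 at −1.68 lie left of 0 in the left panel. Most fatty acid synthesis genes lie left of 0 in both panels, such as MCT at −1.17 in the left and KAS at −0.64 in the right.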

How the data were processed

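Relative quantities came from quantitative PCR of 44 genes with 3 repeats in each of 4 samples. The authors deposited linear ratios: a table in which each gene's top value among 12 is 1, a table normalized to housekeeping genes and a table of fold over control, per the file headers. Recomputation showed 1 factor per sample and repeat, from CYP and PAP1, which reproduced 43 genes within 0.1%. The normalized MCT values equalled that factor, so MCT was its own ratio divided by it. In the authors' deposited table of folds, PAP1 in repeat 1 of SAMPLE 3 reads 0.986, the value of CYP, where the deposited normalized values give 1.01. The names of 4 matching entries were written differently in the 2 matrices and were paired by position and value. Instrument, software and efficiencies: not given in the sources used here.

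Log2 values were averaged over repeats with Python 3.11.15 and numpy 2.4.6. The rule of size was checked on simulated data, which cannot show how it behaves between conditions of a single sample each. Every gene could be named: those called, without overlap, or among the 5 highest and 5 lowest changes were given by repeat, and others within their list. Genes and lists were chosen with earlier results of these data known. Alternatives were other reference genes, repeats left out, other averages and an amplification base of 2. The step from column to sample is limited to control against flashing light.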

Additional observations from a re-analysis of the deposited data

Results flagged for a closer look

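For 3 of the 36 targets the change against continuous light ran one way in each repeat number of SAMPLE 3 and the other way in each repeat number of another flashing-light sample. Whether the numbers pair the samples is not known. These differences were not tested, as there was 1 sample of each kind, and both changes of a case share the CL repeats. AGPase1 was lower than CL in SAMPLE 3 at −0.16 ± 0.16 and higher in SAMPLE 4 at 0.18 ± 0.09, a difference of −0.34. LPAT1 was at 0.20 ± 0.24 in SAMPLE 3 and −0.15 ± 0.08 in SAMPLE 4, a difference of 0.35. MCT, computed from the ratio and the factor, was at −0.37 ± 0.50 in SAMPLE 3 and 0.80 ± 0.46 in SAMPLE 2, a difference of −1.17.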

How the results depend on the processing

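Over 27 alternatives, the count of called targets was 1 or 0 in each and no target was called higher. The count was 0 with PAP1, TEF1, UFP, AT1, BT or GAPDH alone, with the geometric mean of the 8 reference-type genes, with no reference gene and with the median of repeats. It was 0 to 1 when a repeat was left out, in both samples or in 1. The cause was not tested. The median target, −0.04, moved to 0.19 with TEF1, 0.24 with the geometric mean of 8, 0.41 with AT1, 1.27 with BT and 0.20 with GAPDH, a shift that is the same for each gene. With BT, NR was at 0.16. DGAT3 was below CL in 23 of 25 calculations, from −0.44 to 0.91, and D6S in 24, from −0.95 to 0.58. As for NR, leaving out repeats or taking their median could not reverse either sign. DGAT3 was lower beyond 2 propagated SDs in 17 of the 25 and D6S in 6. For DGAT3 this was lost with ACT, TEF1, UFP, AT1, BT or GAPDH alone, with the geometric mean of 8 and with no reference gene. Its change there ran from −0.44 ± 0.38 with UFP to 0.91 ± 1.24 with BT. Targets lowest in SAMPLE 3, 9 in the main calculation, numbered 5 with the geometric mean of 8. Of 200 list medians 29 moved by more than their spread over repeats. With the replicate block, as differences within repeat numbers, NR stayed called at −1.15 ± 0.40 and the count at 1. Deviations of same-numbered repeats correlated at 0.35, −0.21 and −0.16 over the 36 targets. Those of differently numbered repeats correlated at −0.45 to 0.39, a range that holds the same-numbered values. Whether the numbers pair the samples cannot be decided from this, as the sources do not say what a repeat is. The references UFP, AT1, BT and GAPDH, leaving out a repeat of 1 sample, and MCT as deposited were chosen after seeing the data. Detection limits are unknown without threshold cycles.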
